A study of Rattus norvegicus with 26 samples.

Results

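Cytosolic ribosomal protein genes were examined in thoracic aorta of spontaneously hypertensive rats given saline, Songling Xuemaikang capsule (SXC) or valsartan. Members were the probes whose accession maps to a rat symbol of the form Rpl or Rps plus digits, together with Rplp0, Rplp1, Rplp2 and Rpsa, without the Rps6k kinases and pseudogenes. This gave 142 probes for 81 genes, among 30367 gene probes on the array. Of these, 90 probes for 50 genes belong to the large subunit and 52 probes for 31 genes to the small subunit. A probe was tested where its signal was well above background on at least 6 arrays, which held for 140 member probes of 79 genes. Rpl3l and Rpl27l2, each with 1 faint probe, were not tested.

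The ribosome joins a small subunit, which reads the mRNA, to a large subunit, which forms the peptide bond and carries a flexible stalk of acidic P proteins that recruits translation factors. Most vertebrate ribosomal protein mRNAs begin with a run of pyrimidines, the terminal oligopyrimidine motif, through which the kinase complex mTORC1 controls their translation. Because the proteins are needed in fixed proportion, their mRNAs are abundant in nearly every cell and several serve as reference genes for quantitative PCR.

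All rats were male and of the spontaneously hypertensive strain, an inbred model of high blood pressure. They were dosed by mouth for 4 weeks with saline (7.5 mL/kg), SXC at a low dose (236.25 mg/kg), SXC at a high dose (708.75 mg/kg) or valsartan (21.6 mg/kg). SXC is a Chinese herbal capsule and valsartan blocks the angiotensin II type 1 receptor. At day 28 total RNA of each aorta was hybridised to a one-colour Agilent array, with 8 saline arrays and 6 in each other group. The study's text gives 8 rats in the valsartan group, and no normotensive strain was among these samples. The aorta is a mixture of cells, so fewer cells of a type and less RNA per cell cannot be told apart.

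The 8 saline arrays were scanned on a day of their own, and no treated array shared that day, so scan day and saline group cannot be told apart. The detector voltage was 323 to 325 V for 10 arrays (high-dose arrays 3 to 6 and all valsartan arrays), here called lower gain, and 353 to 354 V for the rest. The share of probes well above background was 67.3% to 76.2% on saline arrays and 70.0% to 77.0% on low-dose arrays. It was 28.7% to 79.3% on high-dose arrays and 32.4% to 56.5% on valsartan arrays, so every valsartan array lay below every saline array. Saline arrays moved in pairs. Deviations were taken from the mean of the saline arrays with the same scan time, arrays 1 to 4 and arrays 5 to 8. Those of arrays 1 and 5, 2 and 6, and 3 and 7 correlated across tested probes with r of 0.71, 0.66 and 0.87, against -0.04 for arrays 4 and 8. Array 4 lay close to the mean of saline arrays 1 and 2 (SD of the difference over probes 0.292). For treated arrays the lowest such SD, to the mean of 2 others of the group, was 0.345. The tests below count the 8 saline arrays as independent, so their p-values may be too small. Summed smooth muscle markers (8 genes, on the log2 scale) ranged from 6.66 to 8.60 in saline, 7.77 to 8.30 in low-dose SXC, 7.43 to 7.87 in high-dose SXC and 7.37 to 7.98 in valsartan, and 5, 2 and 4 of the 8 fell with the high dose, the low dose and valsartan. Adipocyte sums were 4.06 to 8.97 in saline and 2.47 to 5.82 over the treated groups, and endothelial sums 3.23 to 5.71 and 2.04 to 4.10; 5, 6 and 6 of 7 adipocyte and 5, 5 and 4 of 7 endothelial markers fell. Lymphocyte sums were -0.25 to 1.1 in saline, -0.33 to 1.1 in low-dose SXC, 1.01 to 3.21 in high-dose SXC and 2.00 to 2.57 in valsartan, and fibroblast sums 8.48 to 9.43 in saline and 8.09 to 8.92 over the treated groups. The adipocyte sums of saline arrays 3 and 7, 8.97 and 8.73, were the highest of the saline arrays, and their median levels of member probes, 5.41 and 5.33, were the lowest. Summed macrophage markers (9 genes) ranged from 3.84 to 4.95 on the log2 scale in saline, 2.05 to 2.60 in low-dose SXC, 1.48 to 2.19 in high-dose SXC and 1.38 to 1.95 in valsartan. Summed red cell markers (5 of 6 genes on the array) ranged from 8.21 to 9.43 in saline and from 2.54 to 5.54 over the treated groups. No high-dose array had Mrc1 well above background, nor were Cd163, C1qc and Mrc1 on any valsartan array, and the same held for Hemgn in low-dose SXC and Slc4a1 in valsartan. Their part in the results on ribosomal protein genes was not tested.

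Start-site sequences were taken from RefSeq promoter records (build GRCr8), which matched 66 of the 81 member genes. In the 30 bases centred on the record's annotated start, 42 of 66 members (63.6%) held a run of at least 8 pyrimidines (C or T, on the gene's own strand), against 11.4% of 33469 promoter records of all genes. The share was 63.4% for large and 64.0% for small subunit genes. The windows below belong to genes grouped by their brightest probe. It fell with high-dose SXC and valsartan (Rps2, Rps26, Rpl7a), did not pass the test (Rplp0) or rose (Rpl35a, Rps23, Rpl22l1, Rpl39l1). Probes 2 and 3 of Rps23 fell with valsartan. Capitals mark the longest run of pyrimidines in each window.
Rps2, chr10:14251833-14251862, plus strand: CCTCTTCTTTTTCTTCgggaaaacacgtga
Rps26, chr7:1643390-1643419, minus strand: gagagccgccgggTCCTCTTTCgagtcttg
Rpl7a, chr3:30637121-30637150, plus strand: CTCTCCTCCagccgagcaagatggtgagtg
Rplp0, chr12:46718376-46718405, minus strand: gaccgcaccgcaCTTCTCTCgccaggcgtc
Rpl35a, chr11:81235007-81235036, minus strand: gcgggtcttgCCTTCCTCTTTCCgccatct
Rps23, chr2:23814502-23814531, plus strand: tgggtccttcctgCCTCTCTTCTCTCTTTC
Rpl22l1, chr2:113683181-113683210, plus strand: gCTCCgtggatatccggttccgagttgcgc
Rpl39l1, chr10:5966607-5966636, minus strand: actgccaggccgTCCCgctatcctggtgtg
Runs of 8 to 17 bases stood in the windows of fallers, of Rplp0 and of the risers Rpl35a and Rps23, and the longest run was 4 bases in Rpl22l1 and Rpl39l1. A run in these letters is a description of the window.

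Levels are log2 signals minus the array's 75th percentile, so that 0 is the signal below which 75% of the gene probes of an array lie. The signal of a probe depends on the probe as well as on the RNA. Member probes were among the brightest on the array: their median stood at the 98.3 percentile of all gene probes, with 124 probes at or above the 90th percentile and 58 at or above the 99th.

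Against saline, ribosomal protein probes did not move as a block: some rose, some fell, and many did not pass the test. A probe was called where limma's adjusted p (Benjamini-Hochberg, over 23744 tested probes) was under 0.05. With high-dose SXC, 18 of 140 member probes rose (12.9%, against 30.7% of all tested probes) and 56 fell (40.0%, against 25.4%). With valsartan, 17 rose (background 30.3%) and 65 fell (46.4% of members, background 27.3%). With low-dose SXC the split was the other way, with 42 higher (30.0% of members, background 22.4%) and 25 lower (17.9%, background 16.9%). The median log2 change of member probes was -0.27 with high-dose SXC, 0.10 with low-dose SXC and -0.27 with valsartan, beside 0.10, 0.08 and 0.10 over all tested probes. These comparisons share the saline arrays.

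The direction of the family depended on the scaling. Under quantile normalisation, 35 member probes rose (25% of members, against 22.9% of all tested probes) and 47 fell (33.6%, against 32.1%) with high-dose SXC. With low-dose SXC 28 rose (20.0%, against 17.3%) and 45 fell (32.1%, against 14.7%), and with valsartan 36 rose (25.7%, against 21.8%) and 57 fell (40.7%, against 35.5%). The median of all tested probes was itself -0.23, 0.01 and -0.30 in these 3 comparisons under quantile normalisation. Relative to that median, member probes lay 0.36 lower with high-dose SXC (difference of medians -0.36) under the 75th percentile and 0.15 higher under quantile normalisation; for valsartan the differences were -0.37 and 0.10. With low-dose SXC they were 0.02 and -0.08. Counted as 1 brightest probe for each of 79 genes, 12 genes rose and 23 fell with high-dose SXC, 34 and 6 with low-dose SXC, and 14 and 30 with valsartan, and under quantile normalisation 30 and 18, 22 and 17, and 32 and 25. With high-dose SXC and valsartan the side on which members lay of all tested probes, and the balance over brightest probes, thus turned with the scaling. With low-dose SXC the balance over all member probes turned, from 42 higher and 25 lower to 28 and 45. The small difference of medians also changed sign there, while the balance over brightest probes did not turn. Of all calls, 54.7% were higher with high-dose SXC under the 75th percentile and 41.6% under quantile normalisation. The genes below are those whose calls were compared under both and also under normexp background correction and the authors' own deposited values.

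**Figure D1:**
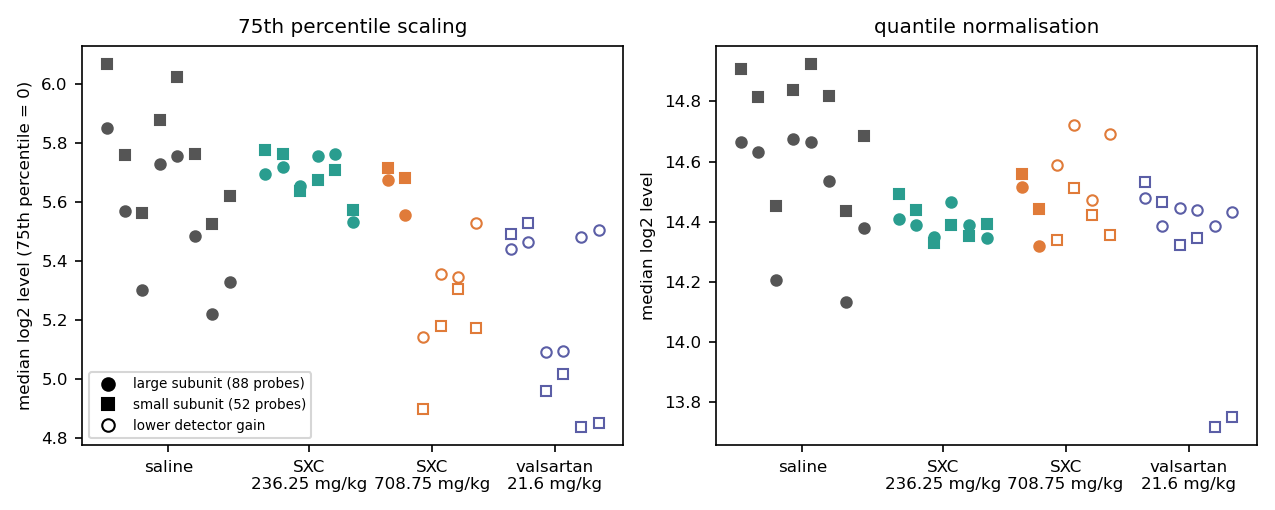
Median log2 level of the tested large subunit probes (circles, 88 probes) and small subunit probes (squares, 52 probes) on each of the 26 arrays, under the 75th percentile (left) and quantile normalisation (right); groups run along the x axis and open symbols are arrays scanned at lower detector gain. On the left the lower-gain arrays lie below most others, on the right only the squares of valsartan arrays 5 and 6 lie below all others, and in both the saline squares lie above their circles.

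Per array, the median level of member probes ranged from 5.33 to 6.00 in saline, 5.57 to 5.74 in low-dose SXC, 4.94 to 5.72 in high-dose SXC and 5.04 to 5.50 in valsartan. High-dose arrays 1 and 2, scanned at the higher gain on the same day as low-dose arrays 1 and 6, had 5.72 and 5.63, inside the saline range, and arrays 3 to 6, at the lower gain, had 4.94 to 5.32. Arrays 3 to 6 were also scanned on other days than arrays 1 and 2, so gain and scan day cannot be told apart here. A fit with only 2 high-dose arrays can also lose a call through their small number. With arrays 1 and 2 standing for the high-dose group, 14 member probes rose and 24 fell against saline (27.1% called, against 28.6% of all tested probes), and the median change was 0.04. Under quantile normalisation the high-dose arrays at the 2 gains overlapped, at 14.39 and 14.56 against 14.38 to 14.58. The plot of subunit medians by array shows this difference between scalings.

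Calls in the same direction under all 4 scalings (75th percentile, quantile, normexp and the authors' values) were fewer. The 4 are not separate checks, as normexp values were also set relative to the 75th percentile. The authors' values lay close to quantile normalisation, with 35 member probes higher and 46 lower against 35 and 47 with high-dose SXC. With high-dose SXC, 10 member probes rose (background 19.3%) and 44 fell (31.4% of 140, background 18.6%). With valsartan, 8 rose (background 18.2%) and 55 fell (39.3%, background 17.4%). With low-dose SXC, 25 rose (17.9%, background 16.8%) and 23 fell (16.4%, background 10.6%). Among the probes that fell with high-dose SXC, 26 were of the 88 large and 18 of the 52 small subunit probes tested, and with valsartan 32 and 23.

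Rps2, a small subunit protein near the mRNA entry channel, fell at all 4 of its probes with high-dose SXC and valsartan. At its brightest probe the level in saline was lowest 5.80, median 5.87 and highest 5.99. Low-dose SXC had 5.36, 5.61 and 5.76, high-dose SXC 4.50, 5.01 and 5.41, and valsartan 4.56, 4.89 and 5.14. Every treated array lay below every saline array at each of the 4 probes, and the saline range was narrow. The log2 change was -0.91 ± 0.13 (SE) with high-dose SXC (limma adjusted p = 1.27e-06, n = 6 and 8), -1.03 ± 0.13 with valsartan (adjusted p = 1.89e-07) and -0.28 ± 0.13 with low-dose SXC (adjusted p = 0.0758). The other 3 probes fell by 0.90 to 1.54 with high-dose SXC, by 0.96 to 1.68 with valsartan and by 0.32 to 1.12 with low-dose SXC, all called. In low-dose SXC the brightest probe was called under quantile normalisation, at -0.54 (limma adjusted p = 3.39e-05). High-dose arrays 1 and 2 alone, at the gain of the saline arrays, gave -0.52 (limma adjusted p = 0.00761), a smaller fall than the 4 lower-gain arrays without them (-1.10, adjusted p = 3.23e-08).

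Rps2 was not alone in lying wholly below saline. Of 140 member probes, 18 were lower on all 18 treated arrays than on any saline array (12.9%, background 7.09%) and 5 were higher on all (3.57%, background 6.62%). Under quantile normalisation 24 were lower (background 8.67%) and 11 higher (background 6.89%). Beside the 4 Rps2 probes, those lower on all treated arrays were both probes of Rpl12, the brightest probes of Rpl28 and Rps13, and 10 dimmer probes of genes such as Rpl17, Rpl19, Rps3 and Rpl6. Since saline had its own scan day, this separation and that day cannot be told apart.

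Rps6, the small subunit protein phosphorylated by S6 kinases, had levels of 5.65, 5.81 and 6.00 in saline (lowest, median, highest), 5.39, 5.49 and 5.58 in low-dose SXC, 4.38, 4.93 and 5.72 in high-dose SXC and 4.46 to 5.54 in valsartan. Low-dose arrays all lay below saline, while the highest high-dose array lay inside the saline range. The change was -0.84 ± 0.18 with high-dose SXC (limma adjusted p = 0.000373) and -0.85 ± 0.18 with valsartan (adjusted p = 0.000312), and the dimmer probe gave -0.81 and -0.83. High-dose arrays 1 and 2 alone gave -0.22 (limma adjusted p = 0.447), so the call with high-dose SXC was not made on these 2 arrays alone. The other 4 differ from them in gain and scan day.

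Rpl7a, a large subunit protein, ranged from 4.30 to 4.94 in saline, 4.07 to 4.52 in low-dose SXC, 2.70 to 4.21 in high-dose SXC and 2.96 to 3.78 in valsartan. Neither the high-dose nor the valsartan range reached the saline range. It fell by 1.27 ± 0.19 on the log2 scale with high-dose SXC (limma adjusted p = 2.92e-06) and changed by -1.10 ± 0.19 with valsartan (adjusted p = 2.00e-05). High-dose arrays 1 and 2 alone gave -0.56 (limma adjusted p = 0.0387). Rps26, which contacts the mRNA at the exit channel, fell by 1.18 ± 0.20 with high-dose SXC (adjusted p = 1.98e-05) and by 1.21 ± 0.20 with valsartan (adjusted p = 1.36e-05). Its levels were 0.67 to 1.53 in saline, 0.26 to 0.81 in low-dose SXC, -0.93 to 0.68 in high-dose SXC and -0.66 to 0.11 in valsartan, and high-dose arrays 1 and 2 alone gave -0.48 (limma adjusted p = 0.120).

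A second set fell with each treatment, low-dose SXC included, a group with no lower-gain array. Rpl28 at its brightest probe had 4.55 to 5.00 in saline, 3.87 to 4.17 in low-dose SXC, 3.59 to 4.24 in high-dose SXC and 3.54 to 4.04 in valsartan. It fell by 0.78 ± 0.11 with low-dose SXC (limma adjusted p = 5.70e-06), by 0.83 ± 0.11 with high-dose SXC and by 0.92 ± 0.11 with valsartan. Rps13 fell by 0.57 ± 0.11, 0.82 ± 0.11 and 0.62 ± 0.11 in the same order. Rpl12, at the base of the P stalk, fell by 0.46 ± 0.11, 0.72 ± 0.11 and 0.64 ± 0.11, and its dimmer probe by 0.37, 0.73 and 1.05. Rps29, a small zinc-binding protein, fell by 0.52 ± 0.14, 0.76 ± 0.14 and 0.83 ± 0.14. All 12 of these brightest-probe changes were called under all 4 scalings.

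**Figure D2:**
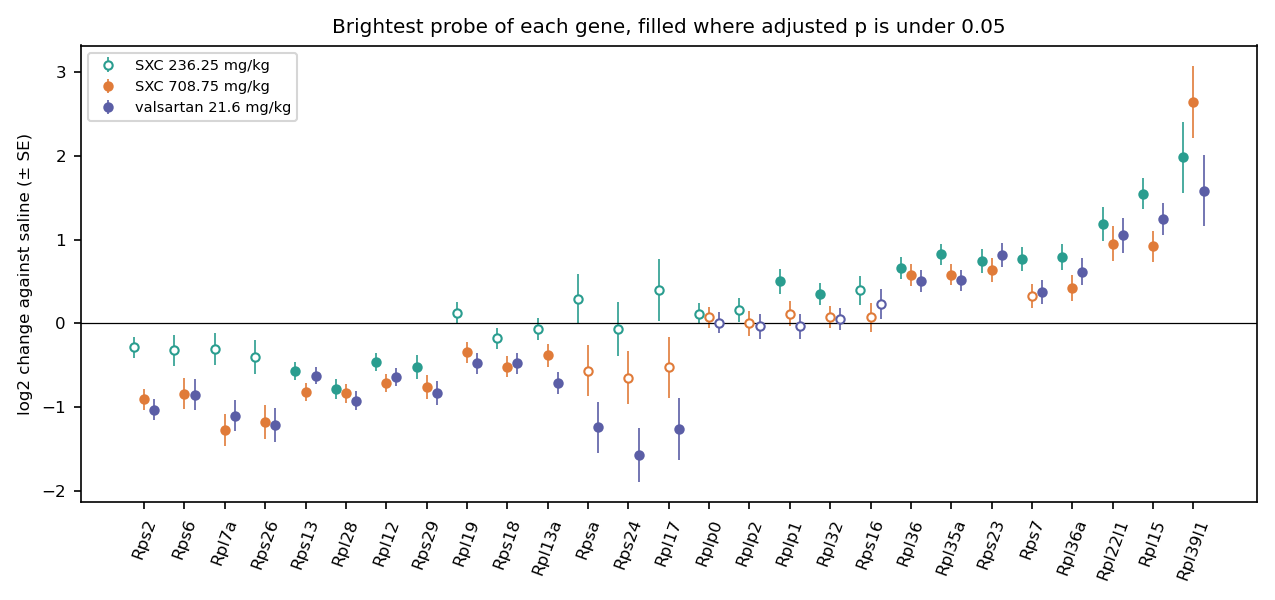
Log2 change against saline (y axis, ± SE) at the brightest probe of named genes (x axis) for low-dose SXC (green), high-dose SXC (orange) and valsartan (blue), filled where limma's adjusted p is under 0.05. Rps2, Rpl7a and Rps26 lie lowest among the genes called with both high-dose SXC and valsartan, the P stalk genes lie near 0 with high-dose SXC and valsartan, and Rpl35a, Rps23, Rpl22l1, Rpl15 and Rpl39l1 lie above 0 with every treatment.

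The clearest rise was of Rpl35a, a large subunit protein mutated in Diamond-Blackfan anaemia, whose 3 probes were all called with every treatment. At the second probe saline arrays had 5.13, 5.34 and 5.73 (lowest, median, highest), low-dose SXC 6.42, 6.53 and 6.63, high-dose SXC 6.12, 6.39 and 6.69, and valsartan 5.93, 6.36 and 7.04. No treated array reached down to the saline range at the probe 2 or probe 3. The change at the second probe was 1.14 ± 0.14 with low-dose SXC (limma adjusted p = 6.53e-07), 1.00 ± 0.14 with high-dose SXC (adjusted p = 1.47e-06) and 1.03 ± 0.14 with valsartan (adjusted p = 9.56e-07). The brightest probe gave 0.82 ± 0.12, 0.58 ± 0.12 and 0.51 ± 0.12, with 0.71 (limma adjusted p = 0.00625) for high-dose arrays 1 and 2 alone. At this probe the rise with valsartan was not called under all 4 scalings.

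Rpl22l1, a paralogue of Rpl22, rose by 1.18 ± 0.21 with low-dose SXC (limma adjusted p = 5.87e-05), 0.95 ± 0.21 with high-dose SXC (adjusted p = 0.000358) and 1.05 ± 0.21 with valsartan (adjusted p = 0.000116). Its levels were 2.46, 3.65 and 3.96 in saline (lowest, median, highest), against 4.36 to 4.80, 4.10 to 4.57 and 4.18 to 4.91. The groups did not overlap, and the saline range was wide. Rpl22 itself rose by 0.55 ± 0.15 with low-dose SXC (limma adjusted p = 0.00414) and 0.40 ± 0.15 with valsartan (adjusted p = 0.0242; 0.13 under normexp, adjusted p = 0.443), and had a change of 0.24 ± 0.15 with high-dose SXC (adjusted p = 0.171).

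Rpl15, a large subunit core protein measured by 1 probe, rose by 1.55 ± 0.19, 0.92 ± 0.19 and 1.24 ± 0.19 with low-dose SXC, high-dose SXC and valsartan (limma adjusted p = 5.34e-07, 0.000191 and 4.09e-06). Its levels were -0.02, 0.74 and 1.17 in saline, 1.80, 2.17 and 2.44 in low-dose SXC, 1.15, 1.58 and 1.90 in high-dose SXC and 1.48, 1.81 and 2.30 in valsartan. Only high-dose SXC touched the saline range. Rpl36 rose by 0.66 ± 0.13, 0.58 ± 0.13 and 0.51 ± 0.13. Rps7, a small subunit protein, rose by 0.77 ± 0.14 with low-dose SXC (limma adjusted p = 0.000111) and 0.37 ± 0.14 with valsartan (adjusted p = 0.0276). With valsartan neither Rpl36 nor Rps7 was called under all 4 scalings.

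The largest fitted change of all members was that of Rpl39l1, a copy named after Rpl39, and it lay near the background. Its level was -5.51 to -5.19 in saline, -4.23 to -2.30 in low-dose SXC, -4.20 to -1.26 in high-dose SXC and -4.95 to -1.95 in valsartan. All treated arrays lay above saline, with a wide spread. The change was 1.98 ± 0.43, 2.64 ± 0.43 and 1.58 ± 0.43 (limma adjusted p = 0.000562, 9.44e-06 and 0.00258), and with valsartan 0.22 (adjusted p = 0.777) under quantile normalisation. Rpl39 itself rose with low-dose SXC by 0.66 ± 0.15 (limma adjusted p = 0.00103), with changes of 0.20 ± 0.15 and 0.32 ± 0.15 with high-dose SXC and valsartan that did not pass.

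Of the P stalk genes, only Rplp1 was called at its brightest probe, with low-dose SXC. Rplp0, the stalk's anchor and a common reference gene, had 7.19, 7.32 and 7.47 in saline (lowest, median, highest), 7.35, 7.42 and 7.54 in low-dose SXC, 7.23, 7.41 and 7.59 in high-dose SXC and 6.97, 7.18 and 7.85 in valsartan. All groups overlapped, and the changes were 0.11 ± 0.12, 0.07 ± 0.12 and 0.00 ± 0.12 (limma adjusted p = 0.505, 0.654 and 0.975). Its second probe, however, fell by 0.30 with high-dose SXC and by 0.44 with valsartan (limma adjusted p = 0.0301 and 0.00224). Rplp2 had changes of 0.16 ± 0.15, 0.00 ± 0.15 and -0.04 ± 0.15, none called, and under quantile normalisation it was called higher with high-dose SXC (0.21, limma adjusted p = 0.0379). Rplp1 rose by 0.50 ± 0.15 with low-dose SXC (adjusted p = 0.00821) and had 0.12 ± 0.15 and -0.04 ± 0.15 with the others; for high-dose arrays 1 and 2 alone the value was 0.56 (limma adjusted p = 0.0275).

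Other members used as reference genes did not share one pattern. Rpl13a fell by 0.38 ± 0.13 with high-dose SXC (limma adjusted p = 0.0169) and by 0.71 ± 0.13 with valsartan (adjusted p = 6.40e-05), and Rps18 fell by 0.52 ± 0.12 and 0.48 ± 0.12 (adjusted p = 0.000922 and 0.00192). Rpl19 fell by 0.34 ± 0.13 and 0.48 ± 0.13 (limma adjusted p = 0.0225 and 0.00225). With high-dose SXC neither Rpl13a nor the brightest Rpl19 probe was called under all 4 scalings (quantile normalisation gave limma adjusted p = 0.0907 and 0.0756). At the brightest probes high-dose arrays 1 and 2 alone gave -0.0704 for Rpl13a, -0.0256 for Rpl19 and -0.18 for Rps18 (limma adjusted p = 0.807, 0.926 and 0.404). At these probes the 3 calls with high-dose SXC were thus not made on these 2 arrays alone, which differ from the other 4 in gain and scan day. With low-dose SXC none of the 3 genes passed at its brightest probe, at -0.07 ± 0.13 for Rpl13a, -0.18 ± 0.12 for Rps18 and 0.12 ± 0.13 for Rpl19. The dimmer Rpl19 probe, by contrast, was called lower than saline under all 4 scalings with each treatment. Its log2 change was -0.43 with the low dose, -0.71 with the high dose and -0.53 with valsartan. On high-dose arrays 1 and 2 this probe had 4.555 to 4.786, below the saline range of 4.907 to 5.368. Rpl32 was called at its brightest probe with low-dose SXC only, at 0.35 ± 0.13 (limma adjusted p = 0.0363). That call held in 5 of 14 fits that each left out 1 array and was lost under quantile normalisation (0.19, adjusted p = 0.0676), and its probe 3 was called in the opposite direction there, at -0.38. Rps16 passed in none of the 3, at 0.39 ± 0.18 (limma adjusted p = 0.0758), 0.07 ± 0.18 and 0.23 ± 0.18.

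Arrays whose file headers give the same scan time are here called a slide, as no label names the slides. In some members the valsartan arrays of different slides stood apart. Rpsa, a small subunit protein also known as the laminin receptor precursor, had 6.39, 6.57 and 6.89 in saline, 6.70, 6.83 and 7.17 in low-dose SXC, 4.70, 5.97 and 6.95 in high-dose SXC and 4.23, 5.35 and 6.45 in valsartan. The 2 valsartan arrays of slide 8 had 6.33 and 6.46 and the 4 of slide 9 had 4.23 to 5.48. High-dose arrays split in the same way by gain, 6.77 and 6.96 at the higher gain and 4.70 to 6.03 at the lower. The fitted change with valsartan was -1.24 ± 0.30 (limma adjusted p = 0.00109), made of -0.20 on slide 8 and -1.76 on slide 9, which were scanned on the same day at the same gain.

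Rpl17, near the peptide exit tunnel, showed this most. With valsartan its brightest probe changed by -1.26 ± 0.37 (limma adjusted p = 0.00499), with 4.58 and 4.76 on slide 8, inside the saline range of 4.43 to 4.83, and 1.68 to 3.71 on slide 9. The dimmer Rpl17 probe showed no such split: it fell by 0.79 ± 0.12, 0.95 ± 0.12 and 0.83 ± 0.12 with low-dose SXC, high-dose SXC and valsartan (limma adjusted p = 1.12e-05, 2.72e-07 and 2.10e-06). Rps24 changed by -1.57 ± 0.32 with valsartan (limma adjusted p = 0.000157), with -0.44 on slide 8 and -2.14 on slide 9. Of 140 member probes, 14 differed by more than 1 log2 unit between the means of the slides, all higher on slide 8, while the median difference was 0.11. Why these probes differ between slides was not tested.

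Rps23, a protein of the decoding centre, had probes that opposed each other. The brightest probe rose by 0.74 ± 0.15, 0.64 ± 0.15 and 0.82 ± 0.15 with low-dose SXC, high-dose SXC and valsartan (limma adjusted p = 0.000216, 0.000563 and 3.28e-05). Its levels were 5.86 to 6.64 in saline and 6.71 to 7.63 over the treated arrays, with no overlap. Probe 3 ranged from 5.26 to 5.95 in saline and from 3.53 to 5.74 in valsartan, and with valsartan it fell by 1.08 ± 0.33 (limma adjusted p = 0.00702). On slide 8 probe 3 had 5.65 and 5.74 and on slide 9 3.53 to 4.41, while the first probe was not lower on slide 9, at 6.77 to 7.63 against 6.77 and 6.93. Probe 2 also fell with valsartan (log2 change -1.06), with 6.37 and 6.55 on slide 8 and 4.56 to 5.57 on slide 9. Which transcript regions the probes read was not analysed here.

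**Figure D3:**
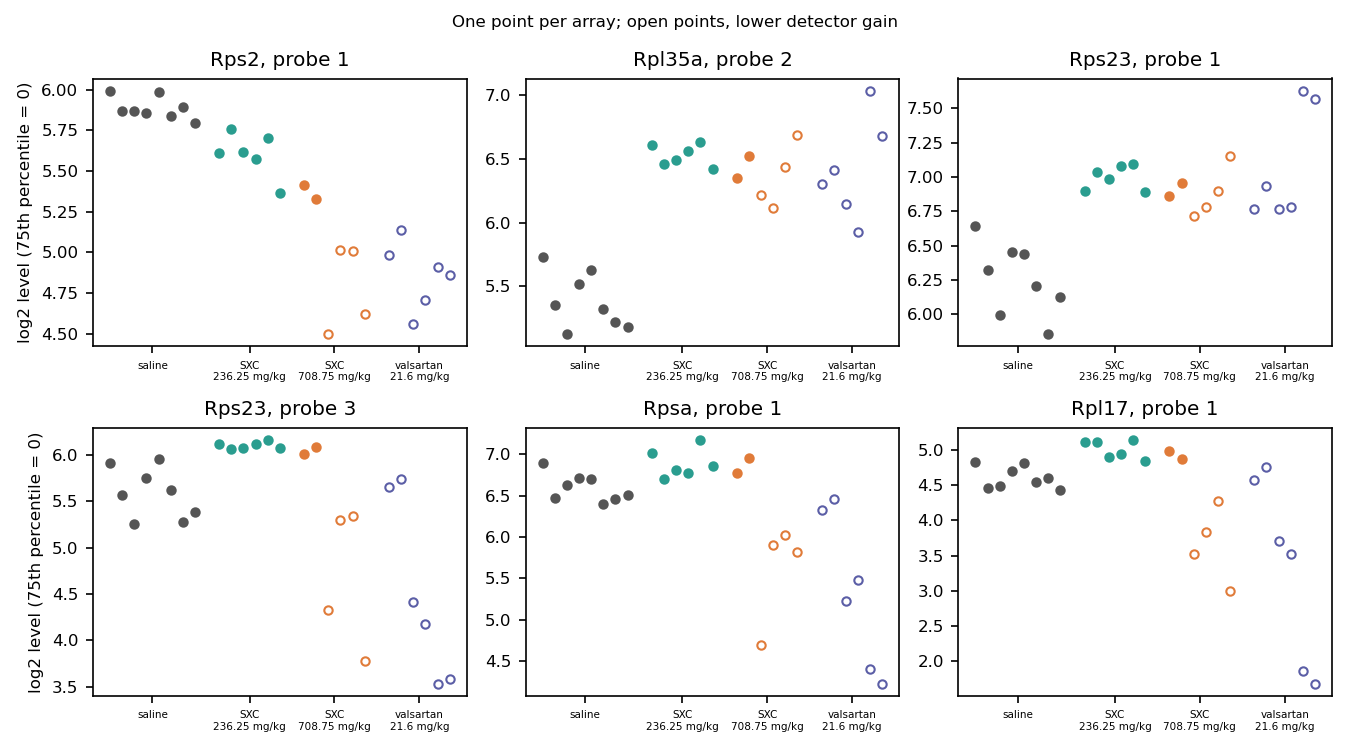
Log2 level (y axis, array's 75th percentile = 0) on each of the 26 arrays, grouped along the x axis, for Rps2, Rpl35a, 2 Rps23 probes, Rpsa and Rpl17; open points are lower-gain arrays. Rps2 is lower and Rpl35a and Rps23 probe 1 are higher on all treated arrays than on saline arrays, while Rps23 probe 3, Rpsa and Rpl17 are low on part of the lower-gain arrays and lowest on valsartan arrays 5 and 6.

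Probes of one gene did not always give the same change. Among the 47 member genes with at least 2 tested probes, the change of the brightest probe lay above that of the dimmest in 34 with high-dose SXC (72.3%), 39 with low-dose SXC (83.0%) and 33 with valsartan (70.2%). In the 1930 other genes with several tested probes the shares were 54.1%, 66.2% and 55.2%. The median spread between the probes of a gene was 0.49, 0.52 and 0.53 log2 units for members and 0.83, 0.71 and 0.91 for the others. Opposite calls were made within 4.26%, 12.8% and 2.13% of member genes, against 9.90%, 6.63% and 11% of the others. Those of members were for Rpl14 and Rpl36a with high-dose SXC, for genes including Rpl14, Rpl32, Rpl6, Rpl7 and Rps3 with low-dose SXC, and for Rps23 with valsartan. Rpl14, a large subunit protein, rose by 0.68 with low-dose SXC at its brightest probe and fell by 0.45 at its dimmer one.

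Across member probes ranked by mean signal, the 47 dimmest had a median change of -0.57 with high-dose SXC, the 46 in the middle -0.42 and the 47 brightest -0.02. With low-dose SXC the medians were -0.30, 0.02 and 0.29, and with valsartan -0.47, -0.50 and -0.04. Calls followed, with 6 higher and 16 lower among the dimmest with low-dose SXC and 24 and 1 among the brightest. Under quantile normalisation the medians of the dimmest, middle and brightest probes were -0.46, -0.25 and 0.16, -0.40, -0.24 and 0.13, and -0.54, -0.35 and 0.19. The brightest probes thus had the highest median under both scalings in each comparison with saline. Whether this reflects the transcripts or the response of the probes at high signal was not tested; no spot of a gene probe was marked as saturated.

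**Figure D4:**
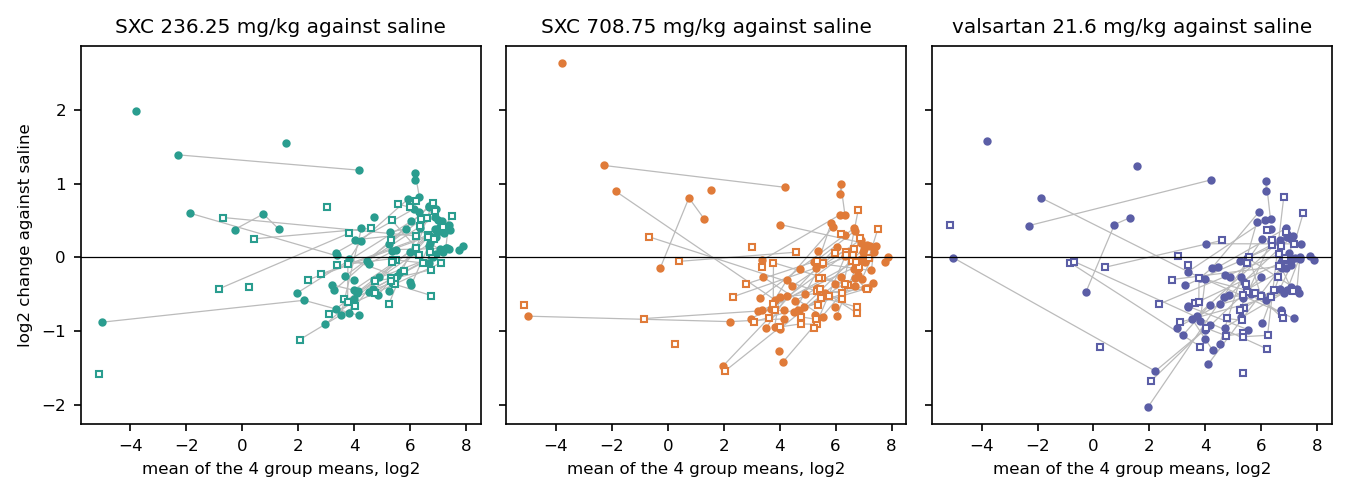
Log2 change against saline (y axis) against the mean of the 4 group means (x axis, log2, array's 75th percentile = 0) for the 140 tested member probes, with probes of one gene joined by grey lines; filled circles are large and open squares small subunit probes. In each panel most lines run upward to the right, and many of the brightest probes lie near 0.

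The balance of the subunits differed between saline and treated arrays. Within each array, the median of large subunit probes minus that of small subunit probes was -0.31 to -0.15 in saline (median -0.27), -0.08 to 0.08 in low-dose SXC (median -0.01), -0.13 to 0.36 in high-dose SXC (median 0.11) and -0.06 to 0.66 in valsartan (median 0.10). Every treated array lay above every saline array. This difference is taken within an array, so a shift common to all probes cancels in it. Effects that depend on signal level, or that touch only some probes of a slide, do not cancel. Quantile normalisation gave -0.30 to -0.16 in saline and -0.12 to 0.68 over the treated arrays. It keeps the order of probes within an array and so is no separate check. Valsartan arrays 5 and 6 stood highest, at 0.65 and 0.66, and these were the arrays on which the probes Rpsa 1 and Rps23 3, both of the small subunit, were lowest.

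Expressed as fitted changes, the median of 88 large subunit probes lay 0.20 above that of 52 small subunit probes with high-dose SXC, 0.15 with low-dose SXC and 0.23 with valsartan. With 1 brightest probe a gene these were 0.12, 0.13 and 0.23. With high-dose SXC, 16 of 88 large subunit probes rose and 35 fell, and 2 of 52 small subunit probes rose and 21 fell. With valsartan the counts were 13 and 38 for the large and 4 and 27 for the small subunit, and with low-dose SXC 31 and 15, and 11 and 10. Of all tested probes, 30.7% rose and 25.4% fell with high-dose SXC, 30.3% and 27.3% with valsartan, and 22.4% and 16.9% with low-dose SXC. No test was made of the subunits as sets, and scan day and the saline group cannot be told apart here.

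Between treated groups, member probes differed mainly from low-dose SXC under the 75th percentile. High-dose against low-dose SXC gave 0 higher (background 15.1%) and 39 lower (background 10.5%), with a median of -0.32 beside -0.05 over all tested probes. Valsartan against low-dose SXC gave 1 higher (background 12.9%) and 56 lower (40.0% of members, background 14.5%), with a median of -0.32. Under quantile normalisation these became 6 higher (4.29% of members, against 6.91% of all tested probes) and 4 lower (2.86%, against 8.44%), and 11 higher (7.86%, against 7.23%) and 23 lower (16.4%, against 18.3%). Within the scan day that holds low-dose arrays 1 and 6 and high-dose arrays 1 and 2, 0 member probes were called by limma (1 at an unadjusted p under 0.05), as were 0 of all 23744 tested probes, and the median was -0.07. The 39 falls of high-dose against low-dose SXC are 27.9% of tested members, beside 25.6% of all tested probes called in either direction. The shares were 8.57% of members and 16.8% of all probes without high-dose array 3, and 40.7% and 34.8% without high-dose array 1. With scan day as a block over the treated arrays, 0 members were called by limma in either comparison (0 and 1 at an unadjusted p under 0.05), and 0 and 5 of all 23744 probes were.

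Only 3 probes fell in high-dose against low-dose SXC under all 4 scalings (background 3.77%), and they belong to Rpl7a, Rps2 and Rps26. The Rpl7a probe fell by 0.97 ± 0.20 (limma adjusted p = 0.00148) and the Rps26 probe by 0.78 ± 0.21 (adjusted p = 0.0107). The second Rps2 probe fell by 0.58 ± 0.12 (adjusted p = 0.00185). Valsartan against low-dose SXC gave 20 such falls (14.3% of members, background 6.17%), among them 3 probes of Rps2 and the slide-dependent probes of Rpsa, Rpl17, Rps24 and Rps23. Valsartan against high-dose SXC gave 0 called members by limma, with 3 higher and 10 lower at an unadjusted p under 0.05 (0 higher, background 0.16%; 0 lower, background 0.809%), with a median of -0.02. Under all 4 scalings the count was also 0 in each direction (background 0.0168% and 0.00421%).

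The copies named after parent genes had patterns of their own. Rps4y2 at its brightest probe fell with valsartan by 1.21 ± 0.34 (limma adjusted p = 0.00402), with 4.19 and 4.22 on slide 8 and 1.96 to 2.99 on slide 9, beside -0.10 ± 0.14 for Rps4x (adjusted p = 0.549). Rpl36al1 rose with low-dose SXC by 0.55 ± 0.19 (adjusted p = 0.0263) and its parent Rpl36a by 0.79 ± 0.16 (adjusted p = 0.000225). Rpl37l1 rose by 0.39 ± 0.14, 0.52 ± 0.14 and 0.54 ± 0.14 with low-dose SXC, high-dose SXC and valsartan. With low-dose SXC quantile normalisation gave 0.36 for Rpl36al1 and 0.34 for Rpl37l1 (limma adjusted p = 0.119 and 0.0501), neither called. No high-dose or valsartan array had Rps12l4 well above background. Probes of such copies can take up RNA of the parent gene, so their values are uncertain.

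Rack1 and Fau, proteins tied to the ribosome but outside the naming rule, were measured too. Rack1, a scaffold on the small subunit head, fell by 1.37, 1.44 and 1.24 with low-dose SXC, high-dose SXC and valsartan (limma adjusted p = 1.52e-05, 3.25e-06 and 2.48e-05). Fau, fused to a small subunit protein, fell by 0.41 with high-dose SXC and 0.46 with valsartan and had -0.23 with low-dose SXC (limma adjusted p = 0.121).

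Among all tested probes 30.7% rose and 25.4% fell with high-dose SXC, 22.4% and 16.9% with low-dose SXC, and 30.3% and 27.3% with valsartan, and the counts of related genes stand beside these shares. Of 21 measured initiation factors, 1 rose and 13 fell with high-dose SXC, 2 and 10 with low-dose SXC, and 1 and 13 with valsartan, with medians of -0.87, -0.61 and -0.69. Eif1, which guards start codon choice, fell by 1.39 with high-dose SXC (limma adjusted p = 5.28e-09) and Eif3c by 1.34 (adjusted p = 3.78e-08), while Eif3a rose by 0.72 (adjusted p = 0.000318). Under quantile normalisation the counts were 1 and 13, 1 and 11, and 1 and 13. Of 14 other mRNAs known to carry the pyrimidine motif, 2 rose and 8 fell with high-dose SXC, among them Vim, which encodes an intermediate filament protein and fell by 1.25 (limma adjusted p = 1.49e-07), and Hnrnpa1, which rose by 0.63 (adjusted p = 0.000358). With low-dose SXC 3 rose and 4 fell, and with valsartan 2 and 5, and the medians of the 14 were -0.37, -0.03 and -0.23 with the high dose, the low dose and valsartan.

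Of 12 measured genes of mTORC1 and S6 kinase control, 2 rose and 6 fell with high-dose SXC, 3 and 3 with low-dose SXC, and 3 and 5 with valsartan. Eif4ebp1, a repressor of cap-dependent translation that mTORC1 phosphorylates, fell by 1.91, 1.89 and 1.97 with the high dose, the low dose and valsartan (limma adjusted p = 1.02e-07, 4.11e-07 and 5.96e-08), and the kinase gene Mtor fell by 1.40, 0.90 and 1.84. Among 66 mitochondrial ribosomal proteins, 6 rose and 22 fell with high-dose SXC, 11 and 15 with low-dose SXC, and 6 and 26 with valsartan. Among 27 ribosome biogenesis genes the counts were 4 and 9, 7 and 4, and 4 and 10, and among 10 genes of RNA polymerase I, which makes ribosomal RNA, 2 and 2, 5 and 4, and 4 and 2.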

How the data were processed

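Total RNA of each thoracic aorta was hybridised to its own array, per the labels' protocols, and 26 arrays were analysed. The deposited intensity values were made with Agilent Feature Extraction 11.0.1.1, per the submitters' processing notes, and are background-subtracted within each array, per the file headers. The authors' deposited log2 table of the same arrays served as an alternative. Spots of a probe were averaged, and log2 signals were set relative to the array's 75th percentile over 30367 gene probes. Probes well above background on at least 6 arrays (23744) entered 1 limma fit (limma 3.58.1, R 4.3.3) over the 4 groups, with a trended variance and Benjamini-Hochberg adjustment at 0.05 in each of 6 comparisons. The p-values measure the spread between these arrays. The fit was tested on simulated data.

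Accessions gave a symbol for 18005 probes and none for 12362. Left out were 9 kinase probes and 1 probe whose symbol did not have the form set by the naming rule. A gene was represented by its brightest probe. Genes named were Rps2, the 6 largest called rises and falls in each comparison, P stalk genes, common reference genes, copies with their parents, genes with opposed or background-level probes, and up to 4 genes of each pathway list by smallest p. Further second probes and slide examples were chosen after their values were seen. Members and lists were chosen with earlier results of these data known. Alternatives were quantile normalisation, normexp background correction (offset 50), the authors' values, no filter, blocks for slide, gain, scan day and replicate number, paired saline arrays and left-out arrays. Same-numbered arrays did not deviate together (36 pairs, r from -0.36 to 0.28), so no block was used. Results for some genes are not reported here.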

Additional observations from a re-analysis of the deposited data

Results flagged for a closer look

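Among 180 groups of arrays examined for named members, 5 held an array whose gap to its nearest neighbour was large for the range of its group, a rule that chance alone meets at times. Rpl27a, a large subunit protein, had 3.969 on valsartan array 3, below 5.085 to 5.29 on the others. Rps29 had 6.156 on high-dose SXC array 3, below 6.539 to 6.706. Rps7 had 6.714 on low-dose SXC array 5, above 6.561 to 6.613. Rps12l4, near the background, had -2.947 on saline array 1, above -5.352 to -4.46, and -2.702 on high-dose SXC array 3, above -6.241 to -5.244.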

How the results depend on the processing

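Against saline, 36 of 62 calls of named genes kept their direction and call under every alternative run. Of 94 values of named genes against saline, calls were lost for 20 with saline arrays averaged in pairs, 15 with the slide as a random block, 12 with normexp, 9 with quantile normalisation, 8 with the authors' values, 5 with the replicate block, 3 without the filter on dim probes and 2 with the percentile over spots, and of the 31 of the high dose for 8 with the gain block, 8 with arrays 1 and 2 alone and 3 without them. The share of tested member probes called was 52.9%, 47.9% and 58.6% for the high dose, the low dose and valsartan against saline (all tested probes 56.2%, 39.3% and 57.6%) and 27.9%, 40.7% and 0% for the high dose and valsartan against the low dose and valsartan against the high dose (all probes 25.6%, 27.4% and 0.969%). Shares and medians that moved follow, each share with that of all tested probes in brackets, and the cause of each shift was not tested. With 1 probe per gene the low-dose median was 0.29. Quantile normalisation gave 7.14% (15.4%) and 24.3% (25.6%) for the high dose and valsartan against the low dose (medians 0.0346 and 0.0162), 0.714% (3.05%) for valsartan against the high dose, and 0.24 for large minus small subunit with the low dose. The authors' values gave 6.43% (15.5%) and 22.9% (23.8%; medians 0.0343 and 0.0149) and 0.25. Normexp gave 54.3% (38.1%) and 72.1% (58.7%), with medians of -0.56 for valsartan against saline and -0.51 against the low dose. The slide as a random block gave 27.9% (28.2%) for the low dose against saline, and 2.86% (6.80%) and 12.9% (9.07%) against the low dose. Saline arrays averaged in pairs gave 25% (22.4%) for the low dose. Detector gain as a block gave 25% (25.6%) for the high dose against saline (median 0.0440) and 0% (0%) against the low dose (median -0.0704; limma, 1 probe at an unadjusted p under 0.05). Without high-dose arrays 1 and 2 the latter was 55.0% (39%).

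Alternatives chosen after seeing the data come first here, and the planned fits that each left out a single array follow. High-dose arrays 1 and 2 alone gave 27.1% (28.6%) against saline (median 0.0440) and 0% (0%) against the low dose (median -0.0704; limma, 1 probe at an unadjusted p under 0.05). The percentile over spots gave 5.00% (22.2%) for the high dose against the low dose. Scan day as a block gave 0% by limma for the high dose (0%; median -0.0668; 0 probes at an unadjusted p under 0.05) and valsartan (0.0211%; median 0.0893; 1 probe) against the low dose, and the shared scan day alone gave 0% (0%; median -0.0668; 1 probe). Leaving out single arrays gave 48.6% to 55.7%, 38.6% to 47.9% and 55.7% to 58.6% against saline (all probes 52.2% to 57.2%, 34.8% to 38.6% and 54.7% to 57.9%), 8.57% to 40.7% and 34.3% to 41.4% against the low dose (15.6% to 34.8% and 21.8% to 28.9%), and 0% to 1.43% (0.350% to 2.73%) for valsartan against the high dose, the highest without high-dose array 3.

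The sign turned for Rplp2 with the high dose under quantile normalisation (0.215) and the authors' values (0.199) and with valsartan under quantile normalisation (0.204), and for Rps12l4 with valsartan (-0.81 and -0.85). For Rps4y2 in the high against the low dose it turned to 0.16 with the gain block and with arrays 1 and 2 alone, and to 0.0879 with the scan-day block and within the shared day. For valsartan against the low dose the scan-day block gave 0.0415 for Rpl17, 0.36 for Rpl36al1, 0.12 for Rplp1, 0.18 for Rps2, 0.0980 for Rps27a, 0.60 for Rps4y2, 0.52 for Rps6 and 0.0268 for Rpsa. The labels' replicate number as a replicate block gave 55.0%, 41.4% and 58.6% against saline (51.4%, 32.9% and 52.6%), 32.1% and 44.3% against the low dose (22.9% and 25.5%), and 0% (0.329%) for valsartan against the high dose. Signal near the background limits Rpl39l1 and Rps12l4.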
